A study of Homo sapiens with 6 samples.

Results

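A2780 cells transfected with the COL11A1 gene (A2780-COL11A1) were compared with both A2780 cultures that carry a short hairpin RNA (shRNA): a scrambled control (A2780 scrambled shRNA) and an shRNA against COL11A1 (A2780-shCOL11A1). These are 3 of the 6 libraries of the series. The remaining libraries are A2780CIS, a cisplatin-resistant derivative of the line with high endogenous COL11A1, and OVCAR3 transfected with COL11A1 or with GFP. A2780 and OVCAR3 are human ovarian cancer cell lines, and per the labels all cultures were grown in RPMI with serum and antibiotics. A gene was taken as above or below the shRNA cultures only where A2780-COL11A1 lay beyond both of them. Of 11819 genes whose average over these libraries was 1 FPKM or more, 4396 lay above both (37.2%), 5608 lay below both (47.4%) and 1815 lay between them. FPKM is a read count scaled by transcript length and by the mapped reads of the library.

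The design limits every value below. Each construct was sequenced once, so single values carry no error. Neither shRNA culture is an overexpression or empty-vector control, and A2780-COL11A1 is not labelled with an shRNA. The COL11A1 construct, the absence of an shRNA and the history of a single culture therefore cannot be told apart. The promoter of the construct, and whether cells were selected or cloned, are not given in the sources used here.

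COL11A1 encodes the alpha 1 chain of type XI collagen, a fibrillar collagen that sits at the core of heterotypic fibrils with type II or type V collagen and helps to set their diameter. Procollagen chains are hydroxylated and folded in the endoplasmic reticulum, secreted, trimmed and crosslinked, and the fibrils are read by cells through integrins and discoidin domain receptors. The gene is low in most adult epithelia and is known as a marker of activated stroma and of aggressive disease in several carcinomas, ovarian cancer among them.

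COL11A1 itself (chr1:103342023-103574052, GRCh37) stood at 8.17 FPKM in A2780-COL11A1, against 4.23 in the scrambled and 0.670 in the shCOL11A1 library. It was above both, by 0.81 on the scale log2(FPKM + 1) over the nearer of them, the scrambled control, so it did not reach 2-fold on that scale. Its difference from the mean of the shRNA libraries was 1.63 ± 0.52 (SE), which did not pass the threshold in limma (adjusted p = 0.0669). The error in that test comes from the difference between the shRNA libraries, which for this gene was -1.65 (shCOL11A1 minus scrambled). It therefore holds the effect of the shRNA against COL11A1 and is not an error between replicates. A2780CIS held 297 FPKM. In OVCAR3 it was 1.67 FPKM with COL11A1, beside 0.0258 with GFP. The table does not separate transcripts of the construct from those of the endogenous gene.

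In the 3 libraries, FPKM values summed to 513959 in A2780-COL11A1, 504153 in scrambled and 481338 in shCOL11A1. Relative depth, read from the spacing of the smallest FPKM values with scrambled set to 1, was 1.58 in A2780-COL11A1 and 0.879 in shCOL11A1, beside 0.501 in OVCAR3-COL11A1 and 1.14 in OVCAR3-GFP. Absolute depth is unknown. The marker genes of OVCAR3 cells (MUC16, KRT7, CLDN4, EPCAM, MSLN, CDH1) were all under 1 FPKM in the 3 libraries, summing to 1.13 FPKM in A2780-COL11A1, 0.85 in scrambled and 1.25 in shCOL11A1, against 644 with COL11A1 and 947 with GFP in OVCAR3. Of 12 ovarian epithelial and carcinoma markers, 3 reached 1 FPKM in A2780-COL11A1 and 2 in each shRNA library, while all 12 did in both OVCAR3 libraries. Leukocyte markers summed to 1.21 FPKM in A2780-COL11A1, 2.24 in scrambled and 1.92 in shCOL11A1, and endothelial markers to under 0.1 FPKM in each. Of 10 genes that mark fibroblasts, 8 reached 1 FPKM in A2780-COL11A1, 6 in scrambled and 7 in shCOL11A1, and their sum was 295 FPKM in A2780-COL11A1, 463 in scrambled and 531 in shCOL11A1.

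At a 2-fold difference from both shRNA libraries, 83 genes were above (0.702% of those tested) and 181 were below (1.53%). Against shCOL11A1 alone the counts were 226 above and 377 below, and against scrambled alone 114 and 252. These counts are a description, since no test is attached to them. The genes nearest the boundary were LTB4R at 1.003 inside it, with COX7B at 0.995 and GCH1 at 0.994 outside. On the lower side PDZD7 and PROSER2 were inside, both at -1.002, and TMEM59L and C2orf44 outside, both at -0.998. Between shCOL11A1 and scrambled, 53 genes differed 2-fold, 26 of them higher in shCOL11A1 and 27 lower. The median absolute difference was 0.26 between A2780-COL11A1 and the mean of the shRNA libraries, against 0.14 between shCOL11A1 and scrambled.

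limma, a linear model with variances moderated across genes, compared A2780-COL11A1 with the mean of the shRNA libraries. It called 702 genes higher (5.94%) and 1225 lower (10.4%) at an adjusted p under 0.05. The error in this test comes from 1 residual degree of freedom per gene, the difference between the shRNA libraries. That difference also holds any effect of the shRNA against COL11A1. The lone A2780-COL11A1 library is assumed to vary as the shRNA libraries do. For a single gene an exact permutation of 1 library against 2 cannot go below p = 0.333. On simulated data 16% of the calls were false. The simulation changed 200 genes and drew the 3 libraries alike, with no effect of the shRNA, so that share need not hold for these calls. The counts depend strongly on the fit. With both OVCAR3 libraries added, 3 genes were higher and 0 lower, with 3272 at an unadjusted p under 0.05. Those libraries added no residual degree of freedom, so the error still came from the shRNA libraries. The genes tested (12767) and the moderation of variances changed instead. The words "rose" and "fell" below mean past the threshold in the 3-library fit.

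**Figure D1:**
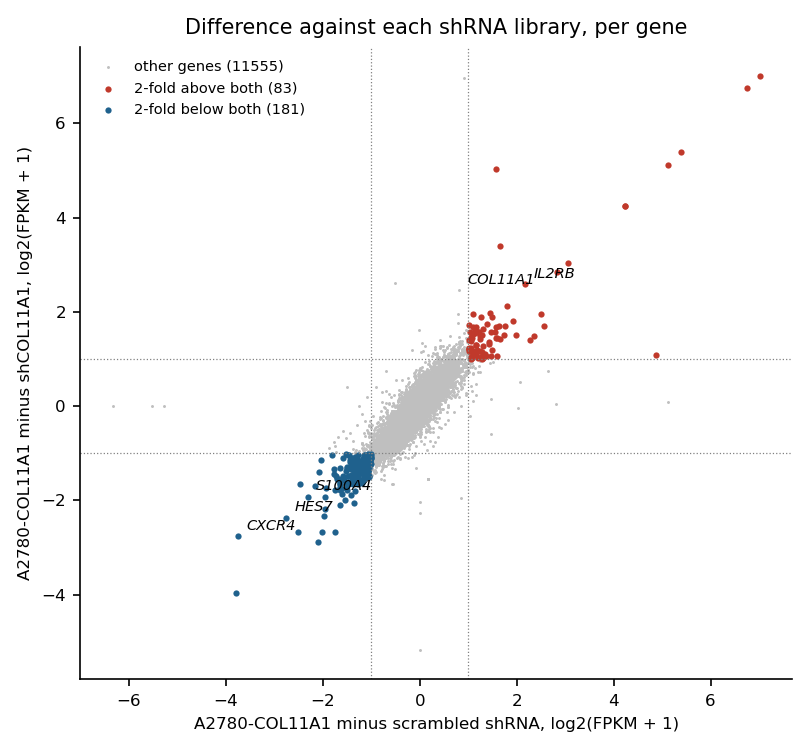
Difference of A2780-COL11A1 from the scrambled library (horizontal axis) and from the shCOL11A1 library (vertical axis) on the scale log2(FPKM + 1), 1 point per gene for 11819 genes, with dotted lines at 2-fold. The 83 genes beyond the lines at the upper right and the 181 at the lower left are coloured, and COL11A1 lies between them and the bulk because its difference from scrambled was 0.81.

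Genes of sterol metabolism were among the higher ones. The list of cholesterol synthesis and uptake genes is largely the set that SREBP2 (the product of SREBF2) switches on when sterols in the endoplasmic reticulum run low. Of 23 tested members, 18 lay above both shRNA libraries and 1 below both, 4 were 2-fold above both, 11 rose and 0 fell in limma, with 15 higher and 0 lower at an unadjusted p under 0.05. The median difference was 0.49 against scrambled and 0.54 against shCOL11A1, beside -0.05 for all genes tested against either library.

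IDI1, an isomerase of the isoprenoid branch, had 72.5 FPKM in A2780-COL11A1, against 34.8 in scrambled and 31.6 in shCOL11A1 (differences of 1.04 from scrambled and 1.17 from shCOL11A1, adjusted p = 0.00408). Its locus overlaps IDI2-AS1, so part of its reads may be shared. ACAT2, an acetyl-CoA thiolase, had 39.1 FPKM against 18.4 and 16.1, and HSD17B7, a sterol ketone reductase, had 10.9 against 4.73 and 3.31. These genes were named for lying farthest above both controls, so that position follows from the choice. On the log2 scale the controls lay farther apart in HSD17B7 than in IDI1 and ACAT2. HMGCS1, the synthase that commits acetyl-CoA units to the pathway, had 55.5 FPKM against 27.4 and 27.2 (1.00 ± 0.14, adjusted p = 0.00526), just under 2-fold. INSIG1, which retains the SREBP complex in the endoplasmic reticulum, rose too, with 38.7 FPKM against 20.2 and 24.8. SQLE, which oxidises squalene, had 41.1 FPKM and lay between scrambled at 37.4 and shCOL11A1 at 45.0. TM7SF2 was the member below both, with 35.5 FPKM against 48.8 and 38.8.

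The same list was lower throughout with COL11A1 in OVCAR3. There 0 of the 23 members were higher in OVCAR3-COL11A1 than in OVCAR3-GFP and 17 were at least 2-fold lower, with a median of -1.32. HMGCS1 had 42.3 FPKM in OVCAR3-COL11A1 against 241 in OVCAR3-GFP, and IDI1 had 47.8 against 128. The OVCAR3 pair is 1 library against 1 and has no test of its own. In a limma test of the difference between the lines, HMGCS1 differed by 3.48 (unadjusted p = 0.000229, adjusted p = 0.0797) and IDI1 by 2.51 (unadjusted p = 0.00115, adjusted p = 0.0797). Neither passed the threshold, although the lines pointed in opposite directions.

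Lipid genes beyond sterols showed smaller differences. Of 15 fatty acid synthesis genes, 11 lay above both shRNA libraries and 4 below, 2 rose and 0 fell. FADS1, a desaturase of polyunsaturated fatty acids, had 102 FPKM in A2780-COL11A1, against 60.7 in scrambled and 45.3 in shCOL11A1. ACSS2, which makes acetyl-CoA from acetate, had 18.1 against 10.6 and 6.87. FASN, the fatty acid synthase itself, had 83.8 FPKM against 80.9 and 82.7, with nearly the same level in all 3 libraries. In OVCAR3 the median of this list was -1.04. Of 28 beta-oxidation genes, 19 lay above both and 5 below, and 5 rose, among them HADHB of the mitochondrial trifunctional protein, with 91.3 FPKM against 58.2 and 45.0, and CPT1B, a carnitine palmitoyltransferase, with 8.69 against 4.04 and 2.18.

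The oxidative phosphorylation list was above the controls almost as a whole, but by little per gene. Of 52 nuclear-encoded subunits, 45 lay above both shRNA libraries and 4 below, 14 rose, 0 fell and 0 reached 2-fold. In limma 24 were higher and 0 lower at an unadjusted p under 0.05. The median was 0.24 against scrambled and 0.42 against shCOL11A1. COX7B, a subunit of cytochrome c oxidase, had 515 FPKM in A2780-COL11A1, against 258 in scrambled and 239.5 in shCOL11A1 (1.05 ± 0.13, adjusted p = 0.00408). NDUFA9 and NDUFB9 of complex I had 78.4 FPKM against 40.6 and 33.5, and 259 against 141 and 114. SDHC of complex II had 64.6 against 36.6 and 30.2. In OVCAR3, 11 of the 52 were higher with COL11A1, and the median was -0.19. Differences also moved with transcript length, in 5 classes of equal size over the tested genes with a known length. In the shortest class the median was -0.02 against scrambled and 0.06 against shCOL11A1. In the longest class it was -0.04 and -0.12. The part of transcript length in the values of the oxidative phosphorylation list was not tested.

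**Figure D2:**
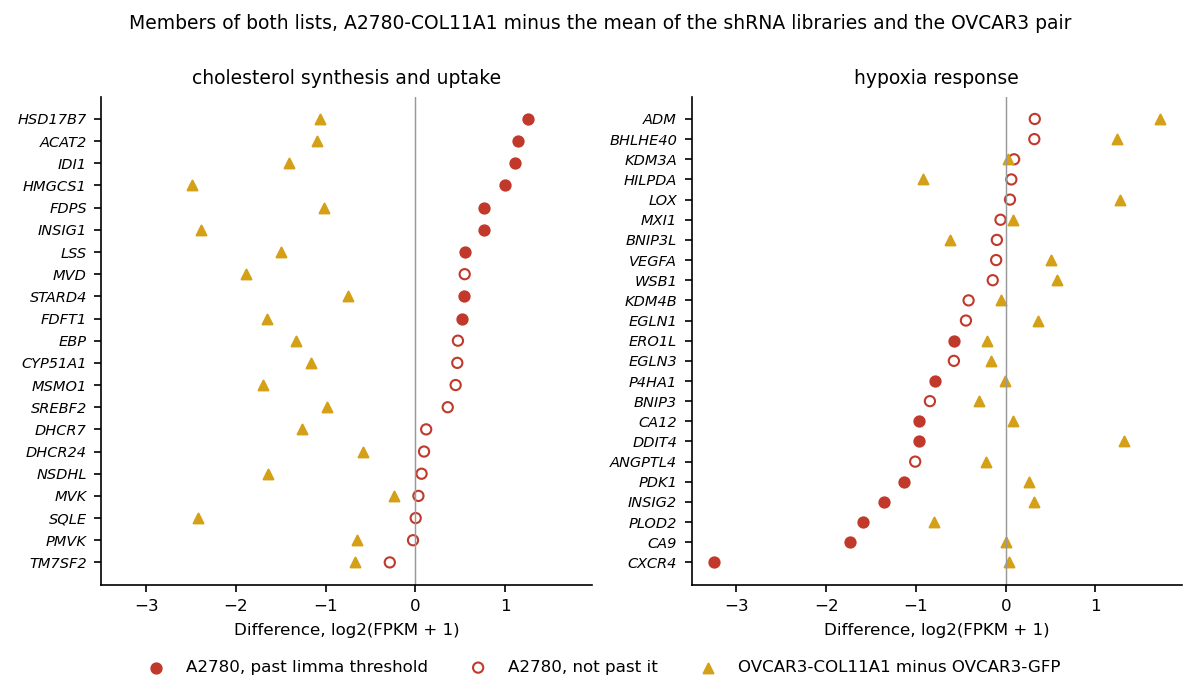
Members of the cholesterol and hypoxia lists reported here, each as the difference of A2780-COL11A1 from the mean of the shRNA libraries (circles, filled where limma passed its threshold) and of OVCAR3-COL11A1 from OVCAR3-GFP (triangles), on the scale log2(FPKM + 1). All filled cholesterol circles lie right of 0 while all triangles of that list lie left of it, and all 9 filled hypoxia circles lie left of 0.

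Genes of the hypoxia response were lower in A2780-COL11A1. The list holds targets of the hypoxia-inducible factors (HIF), which bind promoters and enhancers at a short core when the prolyl hydroxylases that mark HIF for decay lack oxygen. Of 23 tested members, 16 lay below both shRNA libraries and 1 above, 4 were 2-fold below both, 9 fell and 0 rose in limma, with 13 lower and 0 higher at an unadjusted p under 0.05. The median was -0.61 against scrambled and -0.39 against shCOL11A1. shCOL11A1 itself lay below scrambled by a median of 0.34 over the list, so the controls are not alike here.

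The promoters of the 7 members that fell and are described in the text are shown because they can be searched for that core, ACGTG. They run from 250 bases before the start to the base before it, for the first start listed for each gene in RefSeq (GRCh38.p14), 5′ to 3′ on the strand of the gene. Capitals mark the core on the strand of the gene (ACGTG) or on the other strand (read as CACGT), and overlapping matches were allowed. A sequence with no capitals held no match.
CXCR4, chr2:136118150-136118399, minus strand: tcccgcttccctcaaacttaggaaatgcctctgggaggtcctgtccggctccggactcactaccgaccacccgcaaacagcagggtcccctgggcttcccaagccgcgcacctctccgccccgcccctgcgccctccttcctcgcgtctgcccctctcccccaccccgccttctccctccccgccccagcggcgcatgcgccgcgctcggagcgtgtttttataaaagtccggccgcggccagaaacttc
CA9, chr9:35673678-35673927, plus strand: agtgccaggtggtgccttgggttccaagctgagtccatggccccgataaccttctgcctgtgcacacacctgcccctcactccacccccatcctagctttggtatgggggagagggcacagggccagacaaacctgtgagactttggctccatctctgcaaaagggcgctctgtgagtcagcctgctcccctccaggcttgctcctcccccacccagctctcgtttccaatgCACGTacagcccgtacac
INSIG2, chr2:118088221-118088470, plus strand: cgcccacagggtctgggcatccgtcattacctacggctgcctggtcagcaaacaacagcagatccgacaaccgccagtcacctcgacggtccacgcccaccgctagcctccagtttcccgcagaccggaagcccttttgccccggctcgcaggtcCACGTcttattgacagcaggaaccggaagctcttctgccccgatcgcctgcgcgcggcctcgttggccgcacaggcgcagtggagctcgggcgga
PLOD2, chr3:146161185-146161434, minus strand: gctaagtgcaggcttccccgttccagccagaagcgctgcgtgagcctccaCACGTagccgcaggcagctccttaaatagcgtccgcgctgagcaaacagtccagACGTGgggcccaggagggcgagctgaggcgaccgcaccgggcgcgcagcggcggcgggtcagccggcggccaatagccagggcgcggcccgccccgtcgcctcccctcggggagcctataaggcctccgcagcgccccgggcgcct
PDK1, chr2:172555123-172555372, plus strand: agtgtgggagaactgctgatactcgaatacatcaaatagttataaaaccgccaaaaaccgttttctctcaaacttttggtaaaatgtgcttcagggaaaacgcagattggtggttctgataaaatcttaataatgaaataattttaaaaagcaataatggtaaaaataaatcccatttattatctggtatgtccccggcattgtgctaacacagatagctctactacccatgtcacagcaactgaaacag
DDIT4, chr10:72273674-72273923, plus strand: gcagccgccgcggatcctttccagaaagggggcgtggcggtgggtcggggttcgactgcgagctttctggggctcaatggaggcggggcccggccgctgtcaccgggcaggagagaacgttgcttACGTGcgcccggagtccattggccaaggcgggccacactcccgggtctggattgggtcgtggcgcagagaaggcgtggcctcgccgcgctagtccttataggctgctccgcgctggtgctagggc
P4HA1, chr10:73096867-73097116, minus strand: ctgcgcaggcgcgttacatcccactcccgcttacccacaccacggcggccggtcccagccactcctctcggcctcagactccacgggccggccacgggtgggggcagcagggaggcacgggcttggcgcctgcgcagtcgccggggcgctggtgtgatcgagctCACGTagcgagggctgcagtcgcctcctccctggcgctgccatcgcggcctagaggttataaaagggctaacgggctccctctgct
Of the 9 members that fell, 6 held the core in these 250 bases: CA9, INSIG2, PLOD2, DDIT4, P4HA1 and ERO1L, whose promoter is not printed. CXCR4, PDK1 and CA12 (the last not printed either) had no match in this window. Of 20 promoters found for the tested members of the list 13 held it (65.0%). Among the promoters of all genes tested the share was 24% (2256 of 9390). The list was assembled from known HIF targets, so a high share says nothing about these libraries. The sterol regulatory element CACCCCAC was in 1 of 17 promoters found for the cholesterol list, that of SREBF2, beside 2.15% of the promoters of tested genes.

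CXCR4, the receptor for the chemokine CXCL12, was the lowest of the named genes (chr2:136871919-136875725, GRCh37). It had 2.08 FPKM in A2780-COL11A1, against 40.3 in scrambled and 19.9 in shCOL11A1, a difference of -3.25 ± 0.33 (adjusted p = 0.0024). A2780CIS was listed at the lowest value of the table, 0.001 FPKM, and the OVCAR3 libraries were alike, at 4.73 FPKM with COL11A1 and 4.6 with GFP. CA9, the carbonic anhydrase used as a marker of hypoxic tumour cells, had 1.05 FPKM against 7.69 and 4.38 (-1.73 ± 0.28, adjusted p = 0.00815). INSIG2, a relative of INSIG1, had 14.9 FPKM against 41.8 and 38.0, so these partners of the SREBP complex differed in opposite directions. PDK1, which turns pyruvate away from mitochondria, had 8.44 against 22.7 and 17.1. DDIT4, an inhibitor of mTORC1 signalling, had 167 FPKM against 325 and 329.5, with both controls at nearly the same level. VEGFA, the angiogenic growth factor, had 76.9 FPKM against 84.8 and 81.1 and did not pass the threshold. In OVCAR3 the list had a median of 0.03 and 13 of 23 members were higher with COL11A1.

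Glycolysis depended on the control. Of 23 genes, 10 lay below both shRNA libraries, 5 above and 8 between, and 3 fell. The median was -0.48 against scrambled and 0.06 against shCOL11A1, since shCOL11A1 was lower than scrambled by a median of 0.45. The genes that fell were SLC2A3, a glucose transporter, with 18.9 FPKM in A2780-COL11A1 against 49.9 in scrambled and 50.3 in shCOL11A1, PFKFB4, a regulator of phosphofructokinase, with 5.24 against 22 and 10.6, and PFKP, phosphofructokinase of the platelet type, with 12.8 against 38.9 and 21.1. LDHA and PGK1 did not pass: LDHA had 279 FPKM against 413 and 280.0, and PGK1 had 239 against 281 and 157. TXNIP, an arrestin-like protein that restrains glucose uptake, rose, with 46.3 FPKM against 16.7 and 18.1. Its relative ARRDC4 rose too, with 4.85 against 1.49 and 1.61. Of the 8 tested genes in the list that holds them, 4 lay above both shRNA libraries and 4 below. The median of that list was 0.01 from the mean of the shRNA libraries.

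**Figure D3:**
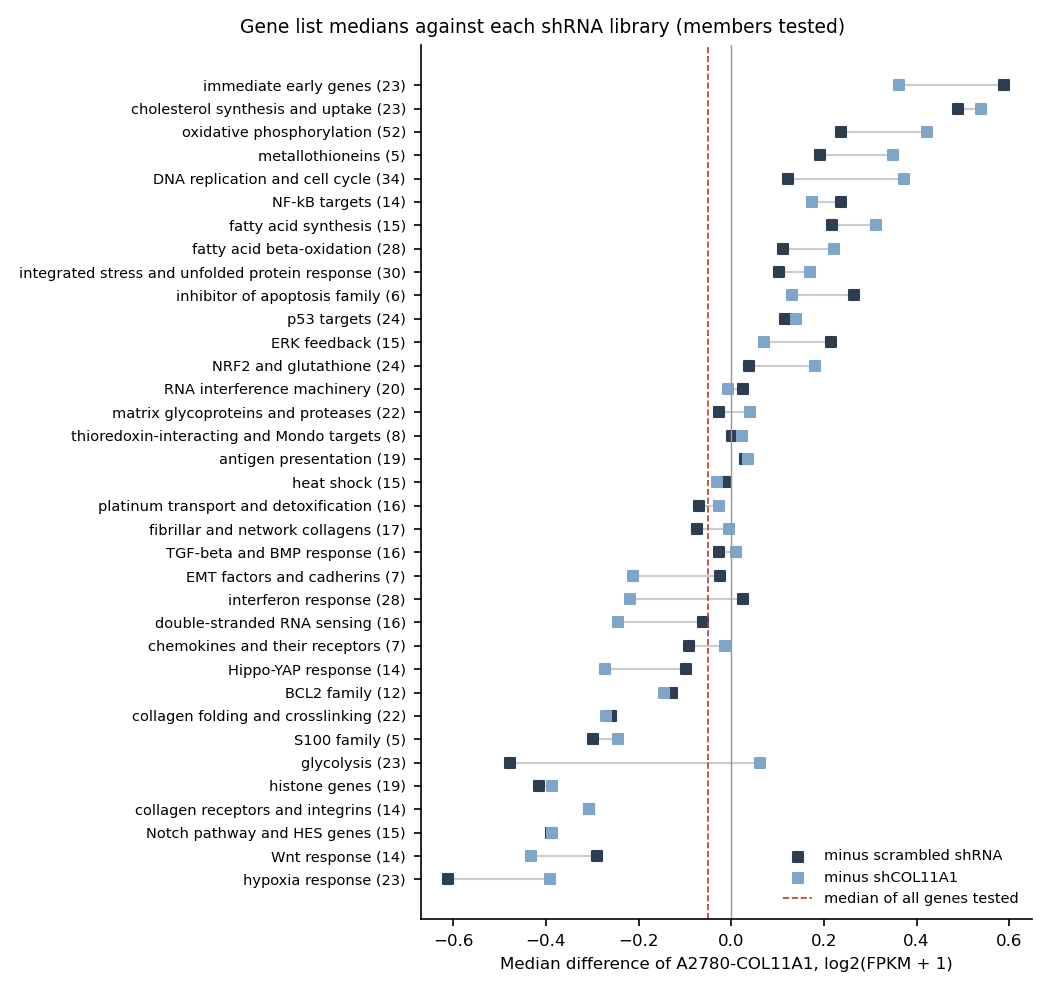
Median difference of A2780-COL11A1 from the scrambled (dark squares) and shCOL11A1 (light squares) library for each gene list with at least 5 tested members, on the scale log2(FPKM + 1), with the median of all genes as a dashed line at -0.05. The cholesterol and immediate early lists lie to the right of it and the hypoxia and Notch lists to the left against both libraries, while the glycolysis list spans 0.

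Immediate early genes, which answer growth factors and stress within minutes and include the AP-1 subunits, were mostly higher. Of 23 members, 16 lay above both shRNA libraries and 5 below, 3 were 2-fold above, 8 rose and 1 fell. ATF3, a stress-induced AP-1 family member, had 42.8 FPKM in A2780-COL11A1, against 13.6 in scrambled and 15.1 in shCOL11A1 (1.52 ± 0.15, adjusted p = 0.00237). FOS had 9.34 FPKM against 3.36 and 4.30, FOSB 2.87 against 0.613 and 0.871, and CYR61, a secreted matricellular protein, 25.7 against 9.88 and 11. MYC was the member that fell, with 90.8 FPKM against 126 and 145. EGR1 had 32.4 FPKM against 13.9 and 27.1 and did not pass, the controls being far apart. MAFF, a small Maf protein that pairs with bZIP factors, was not on the list and rose, with 19.6 FPKM against 5.90 and 6.52.

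Stress and NF-kB genes showed a few clear members. NFKBIA, the inhibitor that holds NF-kB in the cytoplasm and is itself induced by it, had 56.6 FPKM in A2780-COL11A1, against 22.5 in scrambled and 22.7 in shCOL11A1. Of 14 tested NF-kB targets, 10 lay above both, 3 rose and 0 fell. In OVCAR3 the median of these genes was 1.03, with NFKBIA at 265 FPKM in OVCAR3-COL11A1 against 65.7 in OVCAR3-GFP. Of 30 genes of the integrated stress and unfolded protein responses, 17 lay above both, 6 rose and 1 fell. HSPA5, the main chaperone of the endoplasmic reticulum, had 861 FPKM against 446 and 481, DNAJB9, its co-chaperone, 36.6 against 15.5 and 15.4, and PPP1R15A, which restores translation after stress, 76.8 against 29.4 and 36.3. Of 15 cytosolic heat shock genes, 6 lay above both and 7 below, 2 rose and 4 fell, with a median near that of all genes (-0.02 beside -0.05 from the mean of the shRNA libraries). HSPB1 had 63.9 FPKM against 124 and 109.7, and HSPA1A, which shares most of its sequence with HSPA1B, had 28.9 against 52.9 and 49.5.

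The other collagen genes lay about as often above and below both controls as all genes did. Of 17 tested, 7 lay above both shRNA libraries and 8 below, 4 fell and 0 rose in limma, with 2 higher and 4 lower at an unadjusted p under 0.05. Their median difference from the mean of the shRNA libraries was -0.04, and 0.17 with the trend with GC content (given below) removed. COL5A2, whose product joins type XI chains in mixed fibrils, had 219.5 FPKM in A2780-COL11A1, against 316 in scrambled and 336 in shCOL11A1 (-0.57 ± 0.13, adjusted p = 0.0254). COL3A1 had 75.7 FPKM against 147 and 123. COL18A1 and COL26A1 fell as well, with 4.34 against 8.13 and 7.36, and 8.43 against 15.5 and 16.2. The loci of COL3A1, COL5A2 and COL18A1 overlap other genes of the table, so part of their reads may be shared. COL3A1, POSTN and THY1, which also stand on the fibroblast list, fell, and the part of that list in the collagen values was not tested.

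The machinery that folds and crosslinks collagen was lower in more genes than it was higher. Of 22 tested genes, 13 lay below both and 5 above, 5 fell and 1 rose. The shares over all genes tested were 47.4% below both, 37.2% above, 10.4% that fell and 5.94% that rose. The list median from the mean of the shRNA libraries was -0.27, and -0.16 with the trend with GC content (given below) removed. Its median GC content was 57.8%, beside 48.8% for all genes tested. PLOD2, the telopeptide lysyl hydroxylase, had 1.37 FPKM in A2780-COL11A1, against 8.69 in scrambled and 4.26 in shCOL11A1 (-1.59 ± 0.32, adjusted p = 0.0159). P4HA1, a prolyl hydroxylase subunit, had 22.4 FPKM against 45.8 and 34.1, and LOXL2, a lysyl oxidase, had 4.44 against 9.05 and 8.09. PLOD2 and P4HA1 are HIF targets and were counted in the hypoxia list too. FKBP14, a prolyl isomerase of the endoplasmic reticulum, rose, with 14.7 FPKM against 9.24 and 9.17.

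Among 14 collagen receptors and integrins, 8 lay below both and 3 above, 3 fell and 1 rose. Over all genes 47.4% lay below both, 10.4% fell and 5.94% rose. DDR1, the discoidin domain receptor kinase, had 5.37 FPKM in A2780-COL11A1, against 13.8 in scrambled and 15.2 in shCOL11A1 (-1.28 ± 0.16, adjusted p = 0.00408). The fibronectin receptor subunit ITGA5 had 21.5 FPKM against 30.4 and 43.2, and the laminin receptor subunit ITGA6 had 7.59 against 11 and 14.4. ILK, a scaffold at integrin adhesions, rose, with 94.3 FPKM against 66.5 and 60.5.

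Matrix glycoproteins and proteases divided. Of 22 tested genes, 9 lay above both shRNA libraries and 9 below, 4 rose and 3 fell. FN1, fibronectin, had 3.82 FPKM in A2780-COL11A1, against 0.376 in scrambled and 0.106 in shCOL11A1; in OVCAR3 it had 3.97 with COL11A1 against 0.603 with GFP. It was thus low everywhere, and at least 2-fold higher with COL11A1 in both lines. MMP3 and MMP10, stromelysins that cleave matrix proteins, had 17.9 FPKM against 4.63 and 5.65, and 109 against 46.2 and 36.2. The locus of MMP3 overlaps WTAPP1, so part of its reads may be shared. LAMA5, a laminin chain, fell, with 10.4 FPKM against 16.9 and 19.5, and so did SPARC, a collagen-binding protein, with 25 against 39.5 and 37.8. The mesenchymal factor TWIST1 had 104 FPKM against 162 and 138 and fell, while ZEB1 had 10.1 against 11.1 and 13.7 and did not pass.

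Signalling and developmental regulators supplied most of the genes farthest from both controls. In the Notch pathway list, 14 of 15 tested genes lay below both shRNA libraries and 1 above, 3 fell and 0 rose, with a median of -0.39 against either library. At an unadjusted p under 0.05 limma had 7 lower and 1 higher. HES7, a transcriptional repressor of the segmentation clock (chr17:8023908-8027410, GRCh37), accounted for the only 2-fold member, with 1.37 FPKM in A2780-COL11A1, against 15.1 in scrambled and 11.2 in shCOL11A1 (-2.56 ± 0.21, adjusted p = 0.000962). RFNG, a glycosyltransferase that modifies Notch, had 10.9 FPKM against 17.4 and 17.5. HES1, the usual Notch target, had 6.66 FPKM against 2.94 and 5.32 and was the member above both, without passing. Of 14 Wnt genes, 10 lay below both and 3 above. FZD2, a Wnt receptor, fell, with 30.6 FPKM against 57.9 and 53, as did the feedback gene AXIN2, with 1.32 against 2.70 and 2.74, and LGR5, a receptor for R-spondins, rose, with 2.40 against 0.128 and 0.640.

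Among the 15 highest named genes, IL2RB, the beta chain of the interleukin-2 receptor, had 11.9 FPKM in A2780-COL11A1, against 1.85 in scrambled and 1.13 in shCOL11A1 (2.38 ± 0.22, adjusted p = 0.00171). It was listed at 0.001 FPKM in the OVCAR3 libraries. SAT1, which acetylates polyamines for breakdown, had 18.8 against 5.41 and 5.08. BEX2 and BEX1, small X-linked adaptor proteins, had 153 FPKM against 51.8 and 50.8, and 7.46 against 2.02 and 1.30. Dysferlin (DYSF) had 8.85 against 2.32 and 2.10, and PAX9, a paired-box transcription factor, 14 against 2.80 and 4.26. H3F3A, a gene for histone H3.3, had 157 FPKM against 49.5 and 13.9. It has near-identical copies in the genome, and the controls differed widely.

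Among the 15 lowest, S100A4, a calcium-binding protein linked to cell motility, was the most abundant, with 47.3 FPKM in A2780-COL11A1, against 239 in scrambled and 182 in shCOL11A1 (-2.12 ± 0.17, adjusted p = 0.0011). GPR162, an orphan receptor, had 6.20 FPKM against 26.9 and 31.7, and SMIM1, the carrier of the Vel blood group, 6.66 against 28.7 and 28.1. DHRS2, a short-chain reductase, had 1.32 FPKM against 9.01 and 16.1. The zinc finger gene ZNF579 had 13.2 against 43.3 in either control. VAV3, a guanine nucleotide exchange factor, had 4.31 FPKM against 15.7 and 21.7. Beyond these, DLX5, a homeobox factor, had 28.5 FPKM against 88.6 and 106, CD70, a TNF family ligand, 12.3 against 39.9 and 43.7, and MAT2A, which makes S-adenosylmethionine, 130.4 against 368 and 401. In all of these the controls lay closer to each other than to A2780-COL11A1, which the choice of genes by their distance from both controls favours. The drug efflux transporter ABCG2 had 1.11 FPKM against 4.37 and 4.75 and fell too.

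**Figure D4:**
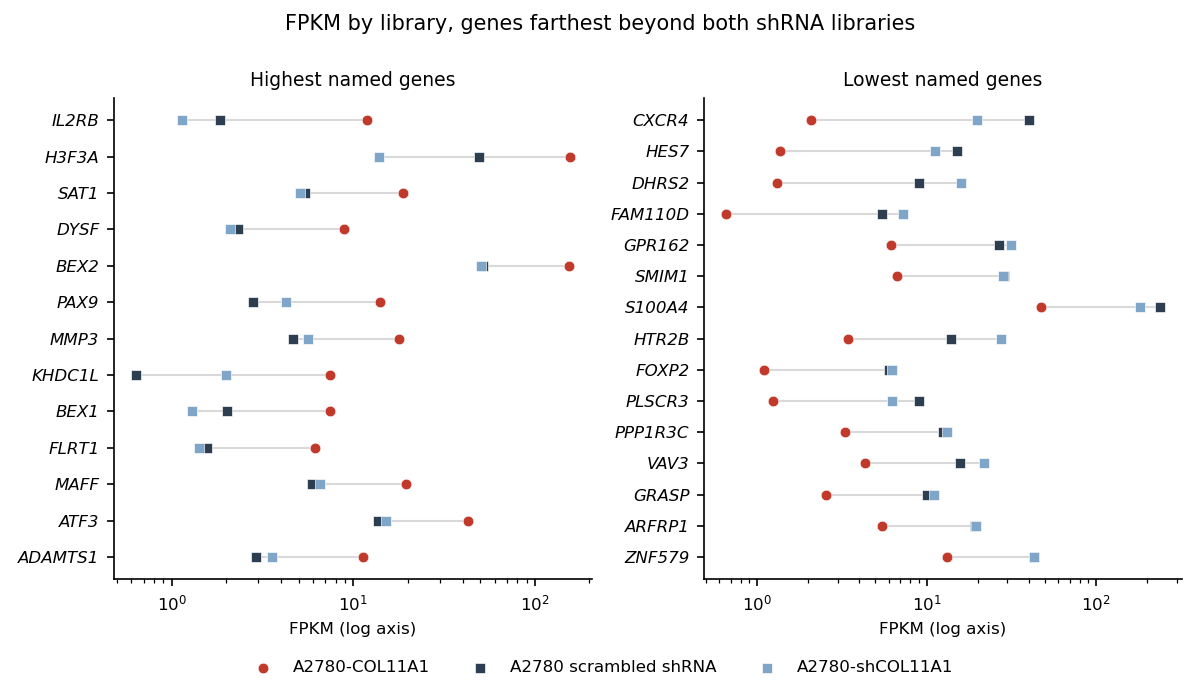
FPKM on a log axis in A2780-COL11A1 (circles), A2780 scrambled shRNA (dark squares) and A2780-shCOL11A1 (light squares), for named genes of the highest and lowest groups in order of the smaller difference. Every circle lies beyond both squares by the choice of genes, and the squares are near each other for most genes but far apart for H3F3A and KHDC1L.

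Genes that answer short hairpin RNA or foreign RNA were examined because construct type differs between the groups. Over all genes tested, 47.4% lay below both shRNA libraries and 37.2% above, 10.4% fell and 5.94% rose. The interferon list lay near the shares below and above. Of 28 tested interferon response genes, 13 lay below both shRNA libraries and 11 above, 5 fell and 2 rose. The IFIT genes fell together: IFIT2 had 3.11 FPKM in A2780-COL11A1, against 8.29 in scrambled and 10.9 in shCOL11A1, IFIT1 had 9.39 against 18.1 and 21.0, IFIT3 had 14.2 against 24.4 and 29.1, and IFIT5 had 7.78 against 15.2 and 18.2. Among 16 sensors of double-stranded RNA, 9 lay below both and 5 above, and limma called 0 of them, with 1 higher and 5 lower at an unadjusted p under 0.05. Among 20 genes of the RNA interference machinery, 8 lay above both and 8 below, 2 rose and 2 fell; XPO5, which exports hairpin precursors from the nucleus, rose, with 49.0 FPKM against 34.7 and 33.4. The part of the shRNA in these values was not tested.

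Cell cycle genes were mostly above the controls. Of 34 genes, 21 lay above both shRNA libraries and 8 below, 6 rose, 0 fell and 0 reached 2-fold, with a median of 0.12 against scrambled and 0.37 against shCOL11A1. CDC6, a replication licensing factor, had 30.0 FPKM in A2780-COL11A1, against 19.4 in scrambled and 17.5 in shCOL11A1, and PCNA, the sliding clamp, had 149 against 98.7 and 70.2. Of 19 histone genes, 12 lay below both (47.4% of all genes did) and 6 above, 4 fell and 1 rose. Those that fell included HIST1H1C, a linker histone, at 15.9 FPKM against 31.1 and 44.2 and HIST1H2BD at 12 against 23.3 and 27.1. Canonical histone transcripts mostly lack a poly-A tail and are caught only in part by poly-A selection. Among apoptosis regulators BIRC2, an inhibitor of apoptosis, rose, with 24.7 FPKM against 15 and 12.8, and XIAP had 10.2 against 7.72 and 8.13 without passing.

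Of 24 NRF2 and glutathione genes, 5 rose and 1 fell, with HMOX1, the heme oxygenase, at 30.4 FPKM in A2780-COL11A1, against 16 in scrambled and 13.8 in shCOL11A1. In OVCAR3 the median of that list was -1.01, and HMOX1 had 0.492 FPKM with COL11A1 against 11 with GFP. Over all genes tested in A2780, 5.94% rose and 10.4% fell, and each count in this paragraph is to be read beside these shares. The platinum and antigen presentation lists below lay near them. Of 24 p53 targets, 5 rose and 0 fell (9 higher and 4 lower at an unadjusted p under 0.05 in limma), among them TNFRSF10B, a death receptor, with 179 FPKM against 120.4 and 91.4, and BAX, a pore-forming BCL2 family member, with 188 against 133 and 131. Of 15 genes that ERK signalling induces to restrain itself, 4 rose, with SPRY4 at 29.8 FPKM against 15.3 and 18.5 and the phosphatase DUSP6 at 51.3 against 33.1 and 38.1. Of 16 TGF-beta and BMP response genes, 3 fell, with SMAD6, an inhibitory SMAD, at 4.21 FPKM against 7.61 and 8.27 and the ligand TGFB3 at 2.54 against 5.90 and 4.99. Of 14 Hippo-YAP response genes, 2 rose and 2 fell, and the receptor kinase AXL, one of those that fell, had 16.1 FPKM against 29 and 31.7. Among 16 genes of platinum transport and detoxification, 1 rose and 1 fell (ABCG2), and among 19 antigen presentation genes 2 rose, the proteasome subunits PSMB10 and PSME2.

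The direction of the differences moved with GC content, the share of G and C bases in a gene's longest coding transcript. The median was 57.5% in the 2-fold lower genes, 47.8% in the 2-fold higher genes and 48.8% in all tested. The tested genes were cut into 5 classes of equal size by GC content. In the richest, 58.9% to 74.5%, 74 genes were 2-fold below both and 8 above, beside 13 below and 12 above in the poorest. The Notch list had a median GC content of 63.1% and the hypoxia list 44.8%. With the GC trend removed, the 2-fold lower count became 119 and limma called 1557 genes higher and 1552 lower, so that 50.1% of the calls were higher, beside 36.4% as deposited. The Notch median became -0.22, and the cholesterol and hypoxia medians were 0.55 and -0.55. Of 36 list medians, 13 moved by more than the spread between the shRNA libraries, among them that of the BCL2 family at 0.02 with the trend removed and -0.19 as deposited, and that of the NRF2 and glutathione list at 0.26 and 0.10. Of 181 named genes 4 lost their call and 19 gained one. Centring each library on its median gave 1165 higher and 947 lower, with 55.2% higher.

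**Figure D5:**
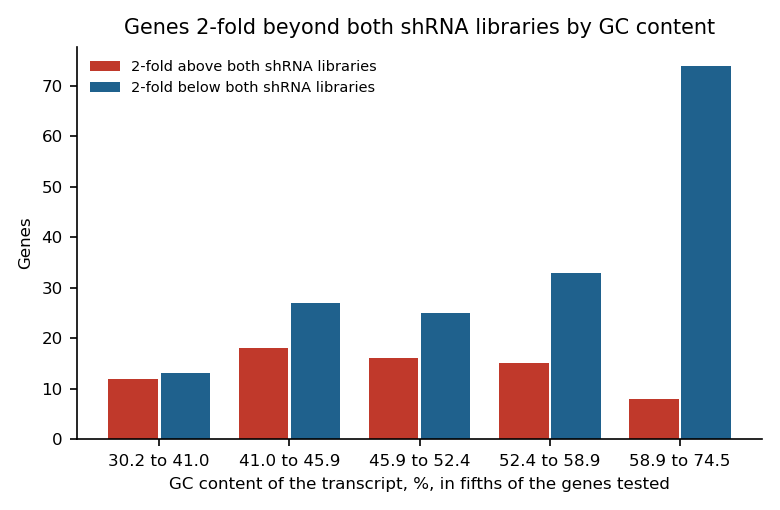
Number of genes at least 2-fold above (left bar) and below (right bar) both shRNA libraries in 5 classes of equal size by GC content of the transcript. The lower genes number 74 in the richest class and 13 in the poorest, and the higher genes between 8 and 18 in each class.

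The genes beyond both controls in A2780 were then set beside the OVCAR3 pair, which shares no library with them. Of all genes tested in both lines, 5.81% were at least 2-fold higher in OVCAR3-COL11A1 than in OVCAR3-GFP and 3.95% were at least 2-fold lower. By any amount 53% were higher and 46.1% lower, and 0.88% were equal, listed at 0.001 FPKM in both OVCAR3 libraries. Of the 83 higher genes of A2780, 81 were measured in both lines and 35 of them were higher in OVCAR3 too (43.2%), 36 lower and 10 equal. At 2-fold, 13 were higher in OVCAR3 (16%) and 14 lower (17.3%). Of the 181 lower genes, 178 were measured and 82 were lower in OVCAR3 (46.1%), 84 higher and 12 equal, with 11 lower and 11 higher at 2-fold (6.18% each). With equal genes set aside, 49.3% of 71 higher genes were higher in OVCAR3 too, beside 53.5% of all genes, and 49.4% of 166 lower genes were lower there, beside 46.5% of all genes.

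Genes at least 2-fold higher with COL11A1 in both lines included FN1, NFKBIA, ATF3 and CYR61, given above, and CXCL10 and IL32. CXCL10, an interferon-induced chemokine, had 3.84 FPKM in A2780-COL11A1, against 0.270 in scrambled and 0.384 in shCOL11A1; in OVCAR3 it had 2.29 with COL11A1 against 0.059 with GFP. IL32, a cytokine, had 4.59 against 1.06 and 0.413, and 2.95 against 0.419. Their levels were low in all libraries. On the lower side, VAV3 had 6.58 FPKM in OVCAR3-COL11A1 against 19.9 in OVCAR3-GFP, MAT2A 34.2 against 79.0, and TST, a mitochondrial sulfurtransferase, 5.11 against 12.8 beside 8.21 in A2780-COL11A1 against 22.5 and 22.8.

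A limma test over 5 libraries asked for which genes the difference with COL11A1 varied between the lines. It called 14 of 12767 genes (0.11%), all of them small RNA genes, with 4764 at an unadjusted p under 0.05. Such RNAs are short, and most lack a poly-A tail. SNORD44, a small nucleolar RNA, had 128 FPKM in A2780-COL11A1 and was listed at 0.001 in both shRNA libraries and in both OVCAR3 libraries. Of the 83 higher genes, 10 were small RNA genes and 69 coded for protein, and of the 181 lower ones 2 and 170. On simulated data this test recovered 0% of changed genes at every size tried, so a gene it did not call is not shown to respond alike in both lines.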

How the data were processed

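Per the labels' protocols, poly-A RNA was selected, stranded libraries were made with a TruSeq kit and sequenced single-end at a read length of 75 bases. The deposited table gives FPKM per gene and library per the file headers. Its unit is recorded as other, since 1.09% of the authors' cells contain text such as a low-data flag. The submitters' processing notes name STAR 2.5.0, RSEM 1.2.25 and GRCh38, whereas the loci match GRCh37 and the columns resemble Cufflinks output. The program is therefore not settled, and a filter named for the table is not described. Read counts were not used here, so depth is known only in relative terms, and no count test was run.

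Of 25275 entries, those on alternate or unplaced contigs (1304), with a date for a name (28), with several loci under 1 name (306 names), or marked as low data (104) or failed (2) were left out, leaving 23145 genes. The scale used is log2(FPKM + 1), which understates the change of low genes. Genes averaging 1 FPKM or more across the 3 libraries entered limma 3.58.1, run under R 4.3.3 (variance trend, two-sided, Benjamini-Hochberg at 5%), and the difference between lines over 5 libraries with the same tool. Gene lists were summarised by counts and medians with no test. On simulated data (20 runs, 200 changed genes) the 3-library fit recovered 10.8% of simulated log2 shifts of 0.5, 82.3% of those of 1 and 99.9% of those of 2, with 16% of calls false.

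Named genes were COL11A1, the 15 highest and 15 lowest by the smaller difference with at least 5 FPKM on the higher side, the 10 smallest p per direction, up to 4 members per list, and up to 8 per direction that were 2-fold the same way in both lines. Unnamed loci, pseudogenes, antisense and small RNA genes were left out by this rule. Further members of the lists (HMGCS1, INSIG1, SQLE, TM7SF2, FASN, PDK1, DDIT4, VEGFA, LDHA, PGK1, EGR1, FKBP14, ILK, LAMA5, SPARC, HES1 and LGR5) and SNORD44 were named after their values were seen. A few genes that the rule names are not reported here. The members and lists were chosen with earlier results of these data known. Alternatives were another pseudocount, filters, scalings, variance settings, a GC correction added after seeing the data, and leaving out each shRNA library. GC content came from GENCODE transcripts and was found for 93.5% of genes.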

Additional observations from a re-analysis of the deposited data

Results flagged for a closer look

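The difference with COL11A1 passed the test between the lines for 14 genes, all small RNA genes. For 6 of the named genes given here the lines lay in opposite directions, at 2-fold in each, and none of these passed that test. The values are the A2780 difference minus the OVCAR3 difference on the scale log2(FPKM + 1). Among sterol genes they were 2.24 for ACAT2, 2.32 for HSD17B7 and 2.51 for IDI1. The protease ADAMTS1 (11.4 FPKM in A2780-COL11A1, against 2.92 and 3.59 in the shRNA libraries, with 12.5 in OVCAR3-COL11A1 against 28.2 with GFP) stood at 2.66. On the lower side DHRS2 stood at -4.39, with 19.0 FPKM in OVCAR3-COL11A1 against 4.39 in OVCAR3-GFP, and PPP1R3C, a glycogen-targeting subunit of protein phosphatase 1, at -3.12.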

How the results depend on the processing

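Genes 2-fold above both numbered 133 with a pseudocount of 0.1 and 53 with a mean of at least 5 FPKM. Genes 2-fold below both numbered 366 with the lower pseudocount and 119 with the GC trend removed. Leaving out each shRNA library gave 114 to 226 above and 252 to 377 below, the higher counts without the scrambled library. limma called 0 higher and 0 lower with no filter on low values (3610 at an unadjusted p under 0.05, smallest adjusted p 0.226), 449 and 592 after quantile normalization, and 3 and 0 in the fit on 5 libraries. Higher calls were 1165 with median scaling and 1557 with the GC trend removed. The test between lines called 1909 with a mean of at least 5 FPKM, 3639 with the GC trend removed, 25 with median scaling, 5 with overlapping genes left out, and 0 with no filter, no variance trend or robust hyperparameters. The cause of these shifts was not tested. Of the named genes, 139 of 179 lost their call in the fit on 5 libraries and 139 of 181 with no filter. The alternatives covered 140 named genes with overlapping genes left out, 141 with a mean of at least 5 FPKM, and 179 or 181 otherwise, and no called gene among those covered changed direction. With 1 library per construct and unknown depth, single values have no error. No paired analysis was possible because each construct was sequenced once.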

Other observations

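A run of genes on the long arm of chromosome 11 was higher in A2780-COL11A1, a region chosen after its values were seen. Between 100000000 and 105000000 (GRCh37), 14 genes were tested, 9 lay above both shRNA libraries and 4 below, and 4 were 2-fold above. The median was 0.50 against scrambled and 0.59 against shCOL11A1, the highest smaller median among windows of 5 Mb with at least 8 genes. Beside MMP3, MMP10 and BIRC2 these were the inflammatory caspases and their regulator: CASP1 had 17.7 FPKM in A2780-COL11A1, against 6.87 in scrambled and 5.98 in shCOL11A1, CASP4 had 33.8 against 11.4 and 14.2, and CARD16 had 45.7 against 24.9 and 20.8. Genes among them were not higher: YAP1 had 43.1 FPKM against 45.5 and 51.0, MMP1 had 2.34 against 2.37 and 1.93, and PDGFD fell, with 4.59 against 8.17 and 8.43.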
